A study of Mus musculus with 6 samples.

Results

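The basement membrane genes described here are 3 laminin alpha chains (Lama2, Lama4, Lama5), both common beta chains (Lamb1, Lamb2), the gamma chain Lamc1, the nidogens Nid1 and Nid2, the proteoglycan perlecan (Hspg2) and the crosslinking enzyme peroxidasin (Pxdn). They were taken by name from the deposited table, and all 10 listed genes were present, with 19 of the 23242 transcripts, among 11808 genes in all. RNA came from primary vascular smooth muscle cells of male C57BL/6 mice aged 6 weeks, kept in normal growth medium. The siSirt7 group (Sirt7 knockdown) was transfected with 20 nM siRNA against Sirt7 and the siScrambled group (wild type, WT) with 20 nM scrambled siRNA, and the titles give 48 h for both, with 3 libraries per group. The knockdown is transient and the labels do not say whether cells of different mice were pooled or whether libraries of 1 group are separate cultures, so p-values measure a spread that may be technical.

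A basement membrane is a thin sheet of matrix that in the artery wall surrounds each smooth muscle cell and underlies the endothelium. Laminins are trimers of an alpha, a beta and a gamma chain that join into a network at the cell surface, where the alpha chain binds integrins and dystroglycan. Type IV collagen forms a separate network, and nidogens and perlecan link the networks. Peroxidasin is a secreted heme peroxidase that uses hydrogen peroxide and bromide to form the sulfilimine bonds between type IV collagen molecules.

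In the siSirt7 libraries Pxdn, Lamb1, Hspg2 and Lama5 fell, and Pxdn by far the most, to 38.9% of its siScrambled mean. Of the 10 genes, 4 were lower, 0 were higher and 6 did not pass the test (limma adjusted p under 0.05 over all 10854 genes that averaged 1 FPKM or more). Over all tested genes 25.2% were called in either direction, 12.5% lower and 12.7% higher. The median log2 fold change of the 10 genes was -0.19, against -0.005 over all tested genes, and the median size of the change was 0.19, against 0.17. The siSirt7 and siScrambled values did not overlap for 5 of the 10 genes, while this held for 43.9% of all tested genes. The table gives FPKM, a level scaled to transcript length and library size, so levels can be compared between genes. Log2 fold changes compare siSirt7 with siScrambled after adding 1 FPKM to each value, so those of low genes are understated, and errors are SD with n = 3 per group.

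The targeted gene, Sirt7, which encodes a nuclear NAD-dependent deacylase, stood at 0.96, 1.25 and 0.36 FPKM in the siSirt7 libraries, against 4.35, 3.55 and 4.48 FPKM in the siScrambled libraries. Its log2 fold change was -1.49 (SE 0.20, limma adjusted p = 0.00388). Library sums of FPKM lay between 321944 and 333683, and read depth is unknown. Smooth muscle markers were all 7 listed, with summed levels of 2437 to 2645 FPKM in siSirt7 and 2777 to 2816 FPKM in siScrambled libraries, and 3 of the 7 (Tagln, Cnn1 and Smtn) were lower. Bulk RNA cannot tell fewer cells of a type from less RNA per cell.

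Sequences in and near these genes are shown for Pxdn, which fell the most, for Lamb2, whose values lay higher with siSirt7 without passing the test, and for the 3′ UTR words of Pxdn and Lamc1. The promoter window runs from 250 bases before to 50 bases after the gene start (RefSeq, GRCm38.p6). Capitals mark matches to GGGCGG or its reverse complement CCGCCC, a GC box. Pxdn lies on the plus strand with its window at chr12:29937786-29938085, and Lamb2 on the plus strand at chr9:108479612-108479911.

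Pxdn promoter: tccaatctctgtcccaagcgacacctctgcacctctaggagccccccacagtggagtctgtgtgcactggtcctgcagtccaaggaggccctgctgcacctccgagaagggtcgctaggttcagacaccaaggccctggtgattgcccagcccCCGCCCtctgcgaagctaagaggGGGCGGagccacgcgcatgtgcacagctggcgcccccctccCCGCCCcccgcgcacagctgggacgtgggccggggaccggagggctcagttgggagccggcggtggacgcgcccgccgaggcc

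Lamb2 promoter: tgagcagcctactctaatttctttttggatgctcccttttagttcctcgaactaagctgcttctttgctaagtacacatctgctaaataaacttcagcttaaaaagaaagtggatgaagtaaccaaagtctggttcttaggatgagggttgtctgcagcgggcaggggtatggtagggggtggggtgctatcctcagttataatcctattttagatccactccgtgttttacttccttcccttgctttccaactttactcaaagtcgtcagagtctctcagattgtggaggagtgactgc

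Windows were matched for 7 of the 10 genes, and Lama4, Lamc1 and Nid2 had none. The Pxdn window has a G+C content of 70.0%, 21 CpG pairs and 3 GC boxes, and the Lamb2 window 44.0%, 4 CpG pairs and 0 GC boxes. The median over 32851 promoter windows was 52.7% and 7 CpG pairs. The other genes that fell have 5 (Hspg2), 4 (Lama5) and 2 (Lamb1) GC boxes, and Lama2 and Nid1 have 1 each, so that 6 of 7 windows hold the motif, against 35.7% of all windows. Their G+C contents and CpG pairs were 70.3% and 27 (Hspg2), 72.7% and 24 (Lama5) and 63.7% and 18 (Lamb1). For Nid1 and Lama2, which were not called, they were 64.7% and 20 (Nid1) and 50.3% and 1 (Lama2). The ETS core CCGGAA was found in 1 of the 7 windows, that of Nid1, and in 14.9% of all windows, and TATAAA in 0 of 7 and 13.6% of all. Each motif was searched on both strands, and no match overlapped one to another motif. The shares over all windows are not limited to tested genes or to windows of like G+C content. They therefore do not show that a motif is enriched in these genes. These matches describe the letters in the windows and say nothing of what binds there.

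The 3′ UTRs were searched for ATATGTA and TATGTAA, words picked earlier because genes that hold them were lower in these same libraries, so their presence is no independent evidence. In the main transcripts they occur in 2 of the 10 genes, Pxdn and Lamc1. In the windows printed here the word is in capitals. The words lie at chr12:30017037-30017044 on the plus strand (Pxdn), and at chr1:153219992-153219998 and chr1:153219187-153219193 on the minus strand (Lamc1), by the 3′ UTRs of GENCODE vM21 on GRCm38.

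Pxdn site: accacgttgcATATGTAAagtggtcccc

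Lamc1 site 1: gtaaggaattTATGTAAatatccccgg

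Lamc1 site 2: acctgtatttTATGTAAtgaaatggac

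In Pxdn both words overlap as ATATGTAA, at bases 1467 to 1474 of its 2088-base 3′ UTR. Lamc1 holds only TATGTAA, 2 times in 2551 bases, and did not pass the test. The other genes that fell hold neither word, in 3′ UTRs of 966 bases (Hspg2), 174 bases (Lama5) and 151 bases (Lamb1). Of 10323 tested genes with a 3′ UTR of at least 50 bases, 22.9% hold at least 1 of the words.

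Peroxidasin had the largest change of the 10 genes. Pxdn (ENSMUSG00000020674.17, GRCm38 chromosome 12, as for the positions that follow, main transcript 29938036 to 30017658, plus strand) had 13.8, 14.7 and 15.8 FPKM in the siSirt7 libraries, against 37.6, 37.6 and 38.6 FPKM in the siScrambled libraries. The groups were far apart, with every siSirt7 value below every siScrambled value. The means were 14.8 ± 0.98 FPKM with siSirt7 and 38.0 ± 0.59 FPKM with siScrambled, a 2.57-fold lower level (log2 fold change -1.31, SE 0.06, 95% interval -1.44 to -1.17, limma adjusted p = 0.000103). In size this change ranks at the 99.6th percentile of all tested genes. Both listed Pxdn transcripts fell. The full-length transcript Pxdn-202 (23 exons, 6614 bases) averaged 14.0 ± 1.17 FPKM with siSirt7 and 34.8 ± 0.46 FPKM with siScrambled. The short Pxdn-201 (9 exons, 2698 bases) averaged 0.73 ± 0.37 FPKM with siSirt7 and 3.16 ± 0.27 FPKM with siScrambled (limma adjusted p = 0.0173 over all transcripts tested).

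**Figure D1:**
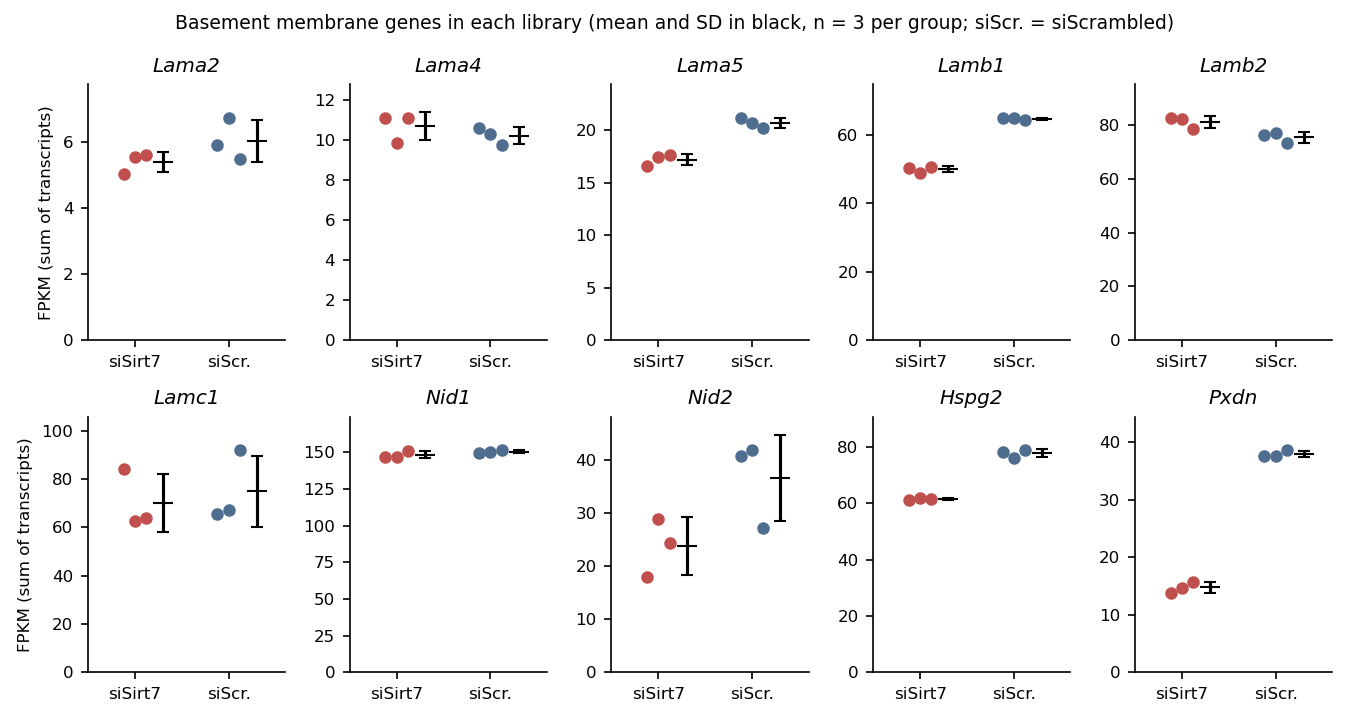
FPKM of each gene (vertical axes, from 0) in the 3 siSirt7 libraries (red) and the 3 siScrambled libraries (blue), with mean and SD in black. Pxdn, Lamb1, Hspg2 and Lama5 lie lower in every siSirt7 library than in any siScrambled library, Lamb2 lies higher without passing the test, and 1 library in each group stands high for Lamc1.

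Of the alpha chains, which give a laminin its receptor binding, Lama5 fell and Lama2 and Lama4 did not pass the test. Lama5 (ENSMUSG00000015647.9, chromosome 2, 180176373 to 180225859, minus strand) encodes an alpha chain known in vessels from mature basement membranes. It stood at 16.6, 17.4 and 17.6 FPKM in siSirt7 libraries, against 21.2, 20.7 and 20.3 FPKM in siScrambled libraries. The groups did not overlap, and the siSirt7 mean was 1.20-fold lower (17.2 ± 0.56 FPKM with siSirt7 and 20.7 ± 0.46 FPKM with siScrambled, log2 fold change -0.25, SE 0.05, 95% interval -0.37 to -0.14, limma adjusted p = 0.0111). Lama5 kept its call under 15 of 16 alternatives but not under all.

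Lama4 (chromosome 10, 38965515 to 39110188, plus strand) encodes an alpha chain found around smooth muscle and under endothelium. It had 11.1, 9.89 and 11.1 FPKM in siSirt7 libraries and 10.6, 10.3 and 9.78 FPKM in siScrambled libraries. The groups overlapped, and the interval of its log2 fold change ran from -0.11 to 0.22 (estimate 0.06, limma adjusted p = 0.583). Lama2 (chromosome 10, 26981285 to 27616843, minus strand), the main alpha chain around skeletal muscle fibres, was the lowest of the 10 genes. It had 5.04, 5.54 and 5.59 FPKM in siSirt7 libraries and 5.91, 6.73 and 5.47 FPKM in siScrambled libraries, again overlapping (log2 fold change -0.14, 95% interval -0.35 to 0.08, limma adjusted p = 0.320). Its main transcript alone, with 65 exons, had 4.99 ± 0.11 FPKM with siSirt7 and 4.59 ± 0.79 FPKM with siScrambled (log2 fold change 0.11), the opposite direction. The difference lies in shorter transcripts, of which Lama2-207 (27 exons) was listed at 0 FPKM in the siSirt7 libraries and at 0.52, 2.28 and 0 FPKM in the siScrambled libraries. Every listed transcript averaged at least 0.5001 FPKM in at least 1 group. Lama2-207 and Lama2-208 reached that level only with siScrambled (means of 0.93 and 0.51 FPKM). Their lower siSirt7 values, and the lower gene sum, are therefore no evidence of a fall.

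Of the beta chains, Lamb1 fell and Lamb2 did not pass the test. Lamb1 (ENSMUSG00000002900.16, chromosome 12, 31265293 to 31329644, plus strand), the more widely expressed beta chain in development, had 50.3, 48.9 and 50.7 FPKM in siSirt7 libraries, against 64.9, 64.8 and 64.4 FPKM in siScrambled libraries. Values within a group were close together and the groups lay well apart. The siSirt7 mean was 1.29-fold lower (49.97 ± 0.95 FPKM with siSirt7 and 64.7 ± 0.27 FPKM with siScrambled, log2 fold change -0.37, SE 0.03, 95% interval -0.44 to -0.29, limma adjusted p = 0.000778). Lamb2 (ENSMUSG00000052911.9, chromosome 9, 108479857 to 108490530, plus strand), the beta chain known from mature vessels, glomeruli and neuromuscular junctions, had 82.6, 82.1 and 78.4 FPKM in siSirt7 libraries, against 76.2, 77.0 and 73.1 FPKM in siScrambled libraries. Its groups did not overlap either, with siSirt7 above siScrambled, but it did not pass the test (81.0 ± 2.31 FPKM with siSirt7 and 75.5 ± 2.04 FPKM with siScrambled, log2 fold change 0.10, 95% interval 0.01 to 0.19, limma adjusted p = 0.0963). Weighting transcripts by their length gave Lamb2 an adjusted p of 0.0329, the lowest of 16 alternatives, whose highest was 0.285.

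Lamc1 (ENSMUSG00000026478.14, chromosome 1, 153218922 to 153332786, minus strand) encodes gamma 1, the gamma chain of most laminins and the one that nidogens bind. Its summed level was 84.0, 62.6 and 63.7 FPKM in siSirt7 libraries and 65.7, 67.0 and 92.0 FPKM in siScrambled libraries. One library in each group stood high, and no difference was called (log2 fold change -0.09, 95% interval -0.50 to 0.32, limma adjusted p = 0.734). In those same libraries the short transcript Lamc1-204 (3 exons, 1447 bases) was listed at 29.9 FPKM (siSirt7 replicate 1) and 34.0 FPKM (siScrambled replicate 3), against 0.63 to 0.90 FPKM in the other 4. Without siScrambled replicate 3 the log2 fold change of Lamc1 was 0.06, the opposite direction. When each transcript was weighted by its length, which brings the sum closer to a count of fragments, the levels were 59.8, 61.8 and 63.2 FPKM with siSirt7 and 65.0, 66.5 and 64.4 FPKM with siScrambled. On that scale, added after the transcript values were seen, the groups did not overlap and the log2 fold change was -0.08 (limma adjusted p = 0.110), still not called.

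**Figure D2:**
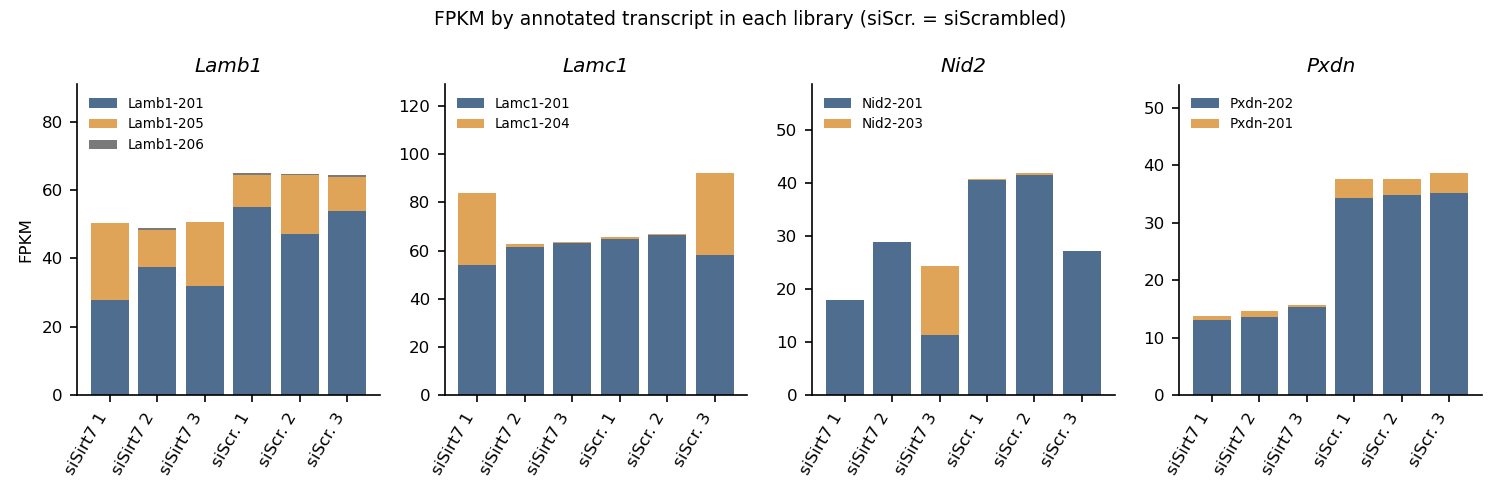
FPKM of each annotated transcript (colours, stacked) of Lamb1, Lamc1, Nid2 and Pxdn in the 3 siSirt7 and 3 siScrambled libraries. The short Lamc1-204 stands out in siSirt7 replicate 1 and siScrambled replicate 3, Nid2-203 in siSirt7 replicate 3, and both Pxdn transcripts are lower with siSirt7.

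FPKM also moved between long transcripts of a gene. Lamb1-205 (34 exons) made up 44.8%, 22.4% and 37.0% of Lamb1 in siSirt7 libraries and 14.6%, 26.2% and 15.5% in siScrambled libraries, overlapping between groups. Lamb1-201 (33 exons) alone had a log2 fold change of -0.67 (limma adjusted p = 0.0309 over all transcripts tested) and Lamb1-205 one of 0.48 (adjusted p = 0.485), so the size of the Lamb1 fall depends on summing both. Weighted by length, the Lamb1 log2 fold change was again -0.37. The sources used here do not say how reads shared by transcripts were divided.

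The nidogens bridge laminin and type IV collagen. Nid1 (ENSMUSG00000005397.8, chromosome 13, 13437551 to 13512269, plus strand) was the most abundant of the 10 genes. It stood at 146.9, 146.6 and 150.9 FPKM in siSirt7 libraries, against 149.7, 150.02 and 151.4 FPKM in siScrambled libraries. The groups overlapped, and the log2 fold change of -0.02 had an interval of -0.09 to 0.04 (limma adjusted p = 0.601). Nid2 (ENSMUSG00000021806.4, chromosome 14, 19751265 to 19811787, plus strand) had 18.0, 28.9 and 24.4 FPKM in siSirt7 libraries, against 40.7, 41.8 and 27.2 FPKM in siScrambled libraries. Its siScrambled replicate 3 lay below siSirt7 replicate 2, so the groups overlapped, and the difference was not called (23.8 ± 5.49 FPKM with siSirt7 and 36.6 ± 8.11 FPKM with siScrambled, log2 fold change -0.60, 95% interval -1.14 to -0.06, limma adjusted p = 0.103). Without siScrambled replicate 3 it was -0.79 with an adjusted p of 0.0490, the lowest of 16 alternatives, whose highest was 0.243. In siSirt7 replicate 3 the shorter Nid2-203 (19 exons) carried 53.6% of the gene's FPKM, and in the other 5 libraries between 0% and 0.82%.

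Perlecan, a heparan sulfate proteoglycan that binds growth factors and inhibits smooth muscle growth in culture, fell. Hspg2 (ENSMUSG00000028763.17, chromosome 4, 137468769 to 137570630, plus strand) had 61.2, 61.9 and 61.3 FPKM in siSirt7 libraries, against 78.3, 76.1 and 78.8 FPKM in siScrambled libraries. The groups did not overlap and the siSirt7 mean was 1.26-fold lower (61.5 ± 0.36 FPKM with siSirt7 and 77.7 ± 1.43 FPKM with siScrambled, log2 fold change -0.33, SE 0.03, 95% interval -0.41 to -0.26, limma adjusted p = 0.000942). Both of its listed transcripts, of 97 exons each, fell, Hspg2-201 with a log2 fold change of -0.31 and Hspg2-203 with one of -0.42.

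**Figure D3:**
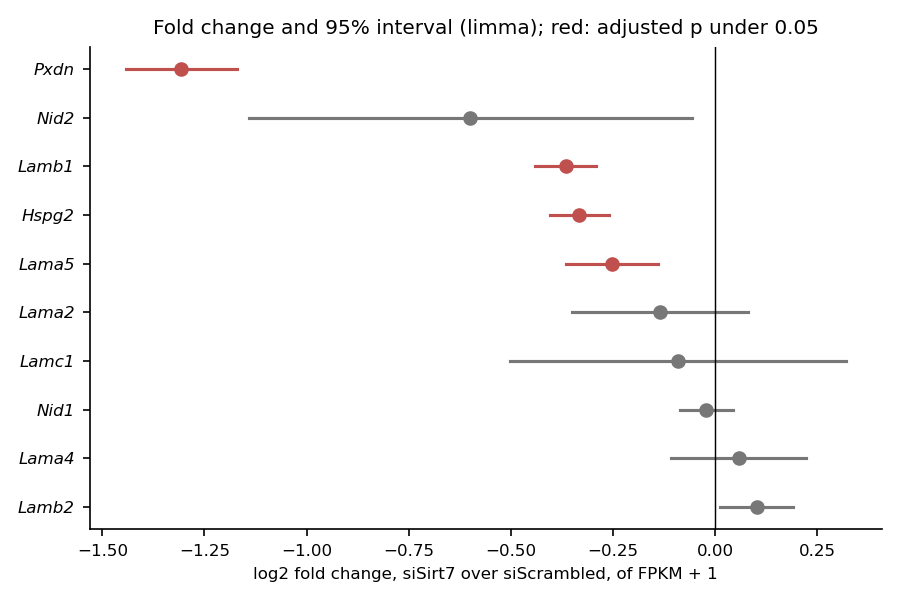
Log2 fold change, siSirt7 over siScrambled (horizontal axis), of each gene with its 95% interval from limma. The 4 genes in red passed the test and lie below 0, Pxdn at -1.31 and Lama5, Hspg2 and Lamb1 between -0.37 and -0.25, and the intervals of Nid2 and Lamc1 are the widest.

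On the length-corrected scale the 10 genes spanned means over the 6 libraries of 5.71 to 149.3 FPKM. The order was Nid1 (149.3), Lamb2 (78.2), Lamc1 (72.5), Hspg2 (69.6), Lamb1 (57.3), Nid2 (30.2), Pxdn (26.4), Lama5 (19.0), Lama4 (10.5) and Lama2 (5.71 FPKM). Within single libraries the order of Lamb2, Lamc1 and Hspg2 varied, while each of them lay above Lamb1 in every library. Nid2 lay above Pxdn in every library but siScrambled replicate 3. Pxdn lay below Lama5 in each siSirt7 library and above it in each siScrambled library. The alpha chains were the scarcest part of the trimer. Summed, they reached 33.3 ± 0.89 FPKM with siSirt7 and 37.0 ± 1.27 FPKM with siScrambled, while the summed beta chains reached 131.0 ± 1.96 FPKM with siSirt7 and 140.1 ± 2.29 FPKM with siScrambled. The alpha sums include shorter Lama2 transcripts that reached the listing level only with siScrambled. That part of the lower siSirt7 alpha sum is no evidence of a fall. Lamc1 averaged 70.1 ± 12.1 FPKM with siSirt7 and 74.9 ± 14.8 FPKM with siScrambled.

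The share of Lamb1 among the beta chains was lower in every siSirt7 library than in any siScrambled library. It was 37.9%, 37.3% and 39.3% of the summed beta chains in siSirt7 libraries, against 46.0%, 45.7% and 46.8% in siScrambled libraries, a difference of -8.01 percentage points. The alpha shares are of the sum of Lama2, Lama4 and Lama5. Lama1 (3.84 FPKM with siSirt7 and 4.06 FPKM with siScrambled) and Lama3 (0.63 and 0.54 FPKM) are left out of it. In that sum, Lama5 was 50.6%, 53.1% and 51.3% in siSirt7 libraries and 56.2%, 54.8% and 57.1% in siScrambled libraries. Lama4 was 34.0%, 30.1% and 32.4% with siSirt7 and 28.2%, 27.4% and 27.5% with siScrambled. The groups did not overlap for these 3 shares, and the levels of 43.9% of all tested genes did not overlap either. Each share had a two-sided exact permutation p of 0.1, the smallest that 3 against 3 libraries allow, and an adjusted p of 0.267 over the 8 shares and ratios computed. Lama4 itself was not called, and its share is taken of a sum that includes Lama5, which fell. The share of Lama2 averaged 16.2 ± 0.74% with siSirt7 and 16.3 ± 1.33% with siScrambled. The Lama2 sum holds shorter transcripts that reached the listing level only with siScrambled, so these means are no evidence of an equal share. With only the most abundant transcript of each gene, the siSirt7 share was 2.25 percentage points higher. Weighted by length, it averaged 15.5 ± 0.18% with siSirt7 and 14.3 ± 0.88% with siScrambled. Neither difference was tested. The shares of Lama5 and Lama4 kept their directions under both. Nid1 was 86.2 ± 2.78% of the summed nidogens with siSirt7 and 80.5 ± 3.67% with siScrambled (exact permutation p = 0.2, adjusted 0.4).

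**Figure D4:**
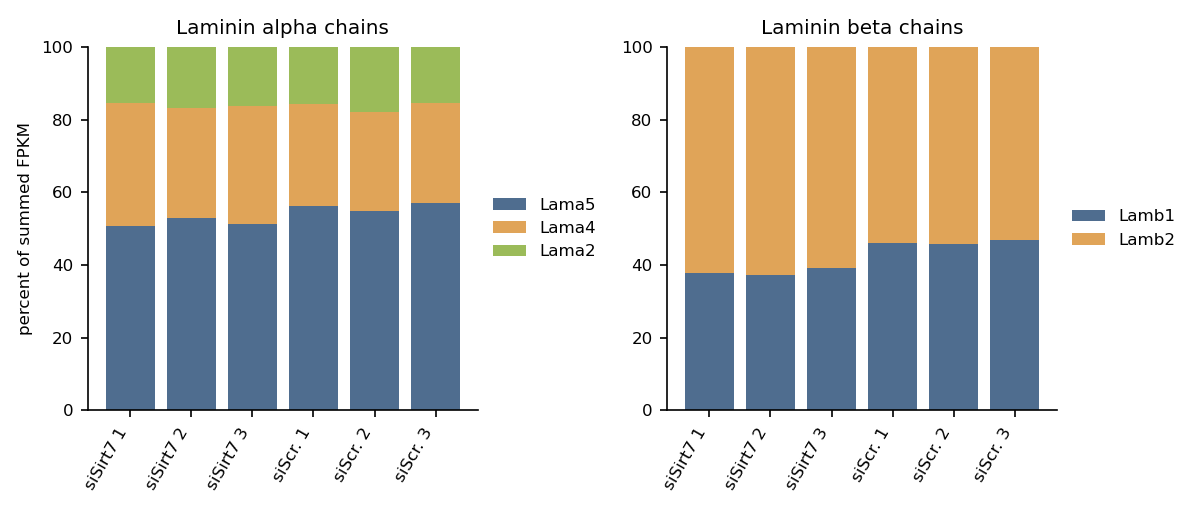
Share of each chain in the summed FPKM of Lama2, Lama4 and Lama5 (left) and of Lamb1 and Lamb2 (right), in percent, for the 3 siSirt7 and 3 siScrambled libraries. Other alpha chains are left out. Lamb1 takes 37.3% to 39.3% of the summed beta chains in siSirt7 libraries and 45.7% to 46.8% in siScrambled libraries. Lama5 takes 50.6% to 53.1% of the summed alpha chains in siSirt7 libraries and 54.8% to 57.1% in siScrambled libraries.

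Ratios to Lamc1 did not separate the groups. The summed alpha chains stood to Lamc1 as 0.485 ± 0.083 with siSirt7 and 0.508 ± 0.106 with siScrambled, and the summed beta chains as 1.90 ± 0.28 with siSirt7 and 1.92 ± 0.37 with siScrambled. The summed nidogens stood to Lamc1 as 2.51 ± 0.47 with siSirt7 and 2.57 ± 0.54 with siScrambled, with exact permutation p of 0.6, 0.8 and 0.6 for the 3 ratios. The lowest ratios were those of the 2 libraries in which Lamc1-204 was listed high. With length-weighted transcripts the alpha ratio was 0.537 ± 0.012 with siSirt7 and 0.553 ± 0.012 with siScrambled.

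Genes that work with these 10 were taken from lists covering their partners, receptors, modifying enzymes and proteases. Of 103 tested genes in those lists, 12 were higher and 19 lower, with a median log2 fold change of -0.06, beside the 12.7% and 12.5% of all tested genes. Among the other laminin chains 2 were tested and 0 called. Of these Lama1, the alpha chain of early embryonic laminin, had 3.84 ± 0.24 FPKM with siSirt7 and 4.06 ± 0.26 FPKM with siScrambled. Of 4 type IV collagen chains tested, 1 was lower and 0 higher. Col4a5 averaged 50.3 ± 0.89 FPKM with siSirt7 and 57.6 ± 1.53 FPKM with siScrambled (log2 fold change -0.19, limma adjusted p = 0.0118, and -0.42 for its main transcript alone). Col4a2, a chain of the major type IV collagen, averaged 433.9 ± 5.48 FPKM with siSirt7 and 449.0 ± 0.64 FPKM with siScrambled (adjusted p = 0.171). Its partner Col4a1 had 628.6, 595.5 and 85.7 FPKM in siSirt7 libraries and 683.6, 576.2 and 580.6 FPKM in siScrambled libraries. The low value is that of siSirt7 replicate 3, and without it the log2 fold change was 0.00083, against -0.94 with it (adjusted p = 0.421, not called).

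Of 13 other basement membrane components tested, 2 were lower and 0 higher. Smoc1, a calcium-binding glycoprotein, had 80.9, 85.1 and 79.5 FPKM in siSirt7 libraries, against 114.0, 113.2 and 113.0 FPKM in siScrambled libraries, with no overlap (log2 fold change -0.47, limma adjusted p = 0.000510). Col18a1, the collagen that yields endostatin, averaged 22.2 ± 0.94 FPKM with siSirt7 and 26.0 ± 0.34 FPKM with siScrambled (log2 fold change -0.22, adjusted p = 0.0178). It lost its call under 6 of 16 alternatives (adjusted p from 0.00501 to 0.0625), among them without siScrambled replicate 1, 2 or 3 and without siSirt7 replicate 2. Agrin (Agrn), a proteoglycan that binds laminin gamma 1, had 12.6, 16.0 and 16.3 FPKM in siSirt7 libraries and 15.9, 17.4 and 14.4 FPKM in siScrambled libraries, which overlap (log2 fold change -0.09, adjusted p = 0.624, and 0.02 without siSirt7 replicate 1).

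Of 20 receptors tested, 3 were higher and 3 lower. The integrin subunit Itgb1, the beta subunit of most laminin-binding integrins, had 321.0, 337.3 and 332.9 FPKM in siSirt7 libraries, against 369.4, 374.7 and 381.1 FPKM in siScrambled libraries (log2 fold change -0.18, limma adjusted p = 0.00711, and 0.0912 after quantile normalization). The alpha 3 subunit Itga3 (log2 fold change -0.24, adjusted p = 0.0485) lost its call under 12 of 16 alternatives, including each library left out in turn, with adjusted p from 0.0408 to 0.211. Ddr2, a collagen receptor (log2 fold change -0.16, adjusted p = 0.0282), lost its call under 8 of 16, including 6 of 6 libraries left out, with adjusted p from 0.00916 to 0.0850. Itga7 (log2 fold change -0.27, adjusted p = 0.0603), Itga6 (log2 fold change 0.03, adjusted p = 0.893) and dystroglycan, Dag1 (log2 fold change -0.21, adjusted p = 0.238), did not pass the test. The collagen receptor Ddr1 had 41.2, 43.6 and 45.0 FPKM in siSirt7 libraries, against 28.7, 26.9 and 32.0 FPKM in siScrambled libraries, a rise with no overlap (log2 fold change 0.55, adjusted p = 0.00334, and 1.10 with an adjusted p of 0.358 for its main transcript alone). The laminin alpha 5 receptor Bcam also rose (16.3 ± 0.90 FPKM with siSirt7 and 13.1 ± 0.59 FPKM with siScrambled, log2 fold change 0.30, adjusted p = 0.0167, and 0.0540 without siScrambled replicate 3). The syndecan Sdc2, a cell surface heparan sulfate proteoglycan, rose as well (log2 fold change 0.19, adjusted p = 0.00695).

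**Figure D5:**
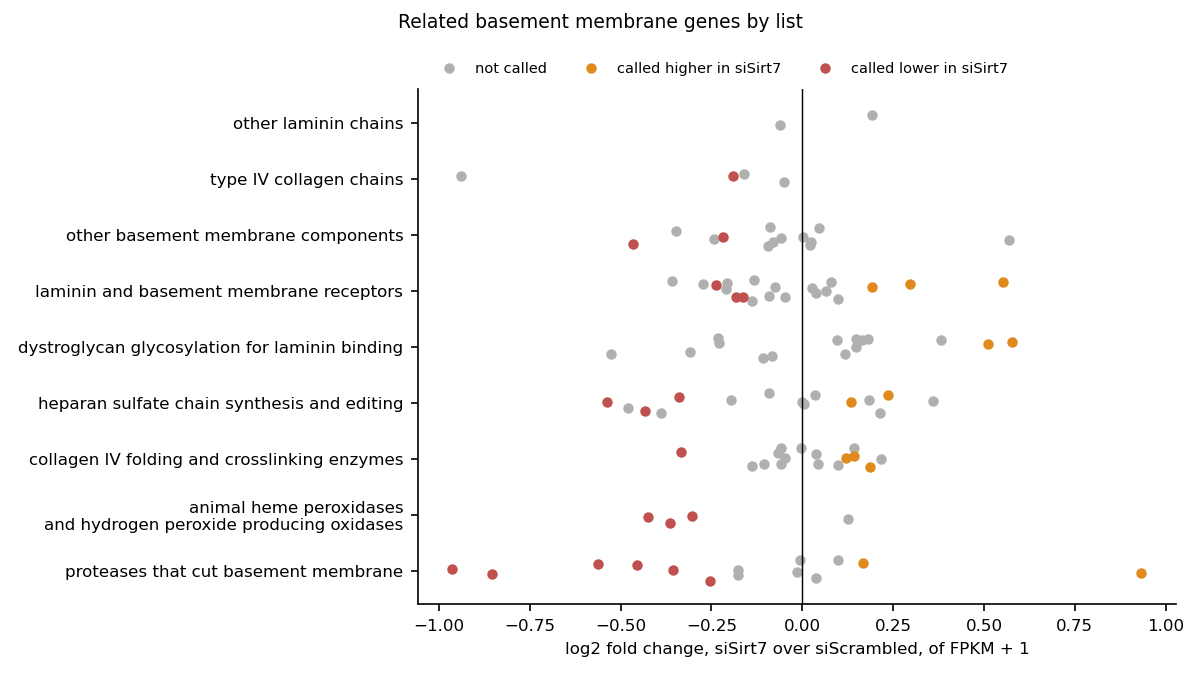
Log2 fold change, siSirt7 over siScrambled (horizontal axis), of each tested gene of the related lists (down the page, Pxdn left out), with genes called lower in red, higher in orange and not called in grey. Proteases hold 6 lower and 2 higher of 14 tested genes, beside 12.5% lower and 12.7% higher over all tested genes. The grey point near -0.94 among the type IV collagens is Col4a1, whose value rests on 1 library.

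Enzymes that build and edit the chains of these proteins went both ways. In the list of dystroglycan glycosylation, which makes the sugar that laminin alpha chains bind, 2 of 15 were higher and 0 lower. The kinase Pomk rose (8.09 ± 0.20 FPKM with siSirt7 and 5.10 ± 0.32 FPKM with siScrambled, log2 fold change 0.58, limma adjusted p = 0.00237). In the list of heparan sulfate enzymes, which make and trim the chains perlecan carries, 2 of 15 were higher and 3 lower. The sulfotransferase Hs6st2 (log2 fold change -0.34, adjusted p = 0.00183, and 0.147 for its main transcript alone), the sulfatase Sulf2 (log2 fold change -0.43, adjusted p = 0.00267) and Hs6st1 (log2 fold change -0.54, adjusted p = 0.0113) fell. Hs2st1 (log2 fold change 0.24, adjusted p = 0.0143) and Sulf1 (log2 fold change 0.13, adjusted p = 0.0207) rose. Hs2st1 had an adjusted p of 0.0515 without siScrambled replicate 1 (0.00913 to 0.0577 over all alternatives). Sulf1 lost its call under 8 of 16 alternatives, among them without siScrambled replicate 1, 2 or 3 or siSirt7 replicate 2 (adjusted p from 0.0137 to 0.109).

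Of 16 collagen folding and crosslinking genes, 3 were higher and 1 lower. The coat protein Sec23a, which exports collagen from the endoplasmic reticulum, fell (log2 fold change -0.33, limma adjusted p = 0.00600). The collagen chaperone Serpinh1 (log2 fold change 0.14, adjusted p = 0.0247), P4hb (log2 fold change 0.12, adjusted p = 0.0276) and the sulfhydryl oxidase Qsox1 (log2 fold change 0.19, adjusted p = 0.0366) rose, and each lost its call without siScrambled replicate 1, 2 or 3. P4hb and Qsox1 also lost it without siSirt7 replicate 3 and Qsox1 without siSirt7 replicate 1, with highest adjusted p of 0.160 (Serpinh1), 0.117 (P4hb) and 0.185 (Qsox1) over all 16 alternatives. Of 13 listed heme peroxidases and hydrogen peroxide producing oxidases, only 5 were present, and all 5 were tested. Of these, 4 were lower, Pxdn itself among them, and 0 higher, beside 12.5% of all tested genes called lower. The prostaglandin synthases Ptgs2 (10.1 ± 0.46 FPKM with siSirt7 and 13.9 ± 0.56 FPKM with siScrambled, log2 fold change -0.42, adjusted p = 0.00434) and Ptgs1 (12.1 ± 0.47 FPKM with siSirt7 and 15.9 ± 0.46 FPKM with siScrambled, log2 fold change -0.36, adjusted p = 0.00490) fell. The NADPH oxidase subunit Cyba fell too (52.1 ± 2.42 FPKM with siSirt7 and 64.5 ± 2.33 FPKM with siScrambled, log2 fold change -0.30, adjusted p = 0.00657, and -0.68 for its main transcript alone). The oxidase Nox4, the fifth of these genes and named after its values were seen, was not called (log2 fold change 0.13, adjusted p = 0.780), with 2.32 to 5.89 FPKM in siSirt7 and 3.33 to 4.26 FPKM in siScrambled libraries.

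Of 14 tested proteases that can cut basement membrane, 2 were higher and 6 lower, beside 12.7% and 12.5% of all tested genes. The list was chosen with earlier results of these data known, and no test of it as a set was made. Mmp14, a membrane-bound matrix metalloproteinase, had 218.0, 222.0 and 221.9 FPKM in siSirt7 libraries, against 298.6, 303.8 and 306.35 FPKM in siScrambled libraries (log2 fold change -0.46, limma adjusted p = 0.000221). Adamts1 (log2 fold change -0.96, adjusted p = 7.6e-05), the urokinase gene Plau (log2 fold change -0.85, adjusted p = 0.00137) and the procollagen proteinase Tll1 (log2 fold change -0.56, adjusted p = 0.00598) also fell. The stromelysin Mmp3 rose (log2 fold change 0.93, adjusted p = 0.00147).

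Markers listed for other cell types differed widely in level, and their RNA alone does not show that such cells were present. The fibroblast marker Dcn stood at 292.3 to 310.8 FPKM in siSirt7 and 275.6 to 287.1 FPKM in siScrambled libraries (not called), and the pericyte marker Rgs5 at 177.1 to 212.1 FPKM in siSirt7 and 250.7 to 262.1 FPKM in siScrambled libraries (called lower). The part of these markers in the results above was not tested. Of 10 endothelial markers 1 was listed, Erg, at 2.64 to 3.64 FPKM in siSirt7 libraries and 3.36 to 4.43 FPKM in siScrambled libraries. Pecam1, Cdh5, Kdr and the other 6 were not among the listed transcripts, of which each averaged at least 0.5001 FPKM in at least 1 group. Of 10 mesothelial and epithelial markers 8 were listed, with sums of 94.6 to 103.7 FPKM in siSirt7 and 102.7 to 114.5 FPKM in siScrambled libraries, 1 higher and 1 lower. Of 8 pericyte markers 7 were listed, with sums of 331.8 to 366.1 FPKM in siSirt7 and 410.9 to 424.6 FPKM in siScrambled libraries. Of these, 2 were higher (Kcnj8 and Abcc9) and 3 lower (Rgs5, Cspg4 and Mcam), while Pdgfrb and Notch3 were not called. Of 8 Schwann cell markers 6 were listed, with sums of 15.8 to 16.4 FPKM in siSirt7 and 18.1 to 19.6 FPKM in siScrambled libraries, 2 of 5 tested lower. All 9 adventitial fibroblast markers were listed (763.5 to 827.2 FPKM in siSirt7 and 723.1 to 778.8 FPKM in siScrambled libraries). Of 7 tested, 2 were higher (Gsn and Lum) and 2 lower (Pdgfra and Dpt). Of the macrophage list 6 of 9 were present (22.0 to 24.5 FPKM in siSirt7 and 19.5 to 24.0 FPKM in siScrambled libraries, 0 called of 2 tested). Of the adipocyte list 2 of 6 were present (32.2 to 36.7 FPKM in siSirt7 and 33.3 to 34.5 FPKM in siScrambled libraries, 1 higher). Of the skeletal and cardiac muscle list 2 of 10 were present (15.3 to 18.5 FPKM in siSirt7 and 30.3 to 33.7 FPKM in siScrambled libraries, 1 of 1 tested lower).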

How the data were processed

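The authors made 6 mRNA sequencing libraries and, per the submitters' processing notes, used HISAT2 and the GRCm38 (mm10) mouse genome. The deposited values are FPKM, 1 per annotated protein-coding transcript and library, per the file headers. The program that estimated FPKM, its annotation and its handling of shared reads are not stated in any source read here, and depth and counting error are unknown. Groups came from sample titles.

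FPKM was summed over the transcripts of a gene, and the 10854 genes that averaged 1 FPKM or more were tested on log2(FPKM + 1) with limma 3.58.1 (trend and robust options, R 4.3.3), with Benjamini-Hochberg adjustment over all tested genes. Shares used exact permutation tests (Python 3.11.15, scipy 1.17.1). Numpy 2.4.6, pandas 2.3.3 and matplotlib 3.10.9 were also used. The test was tried on simulated data first. Named besides the 10 genes and Sirt7 were, from each related list, up to 5 called genes with the smallest adjusted p or, with none called, the most abundant, and direct binding partners; 1 of these genes is left out of the text. The members, lists and 3′ UTR words were chosen with earlier results of these data known. 3′ UTRs came from GENCODE vM21, searched in each gene's most abundant transcript. Alternatives were median-of-ratios and quantile scaling, no filter, a minimum of 5 FPKM, a pseudocount of 0.1 or 0.5, limma without either option, a replicate block, single transcripts, each library left out and, chosen after seeing the data, transcripts weighted by length.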

Additional observations from a re-analysis of the deposited data

How the results depend on the processing

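Pxdn, Lamb1 and Hspg2 stayed lower and called under all 16 alternatives, with log2 fold changes from -1.36 to -1.25, from -0.67 to -0.35 and from -0.38 to -0.31. The count of the 10 genes called was 4 or 5 without 1 library (5, with Nid2, without siScrambled replicate 3), 5 with length-weighted transcripts (Lamb2 added), and 3 with the replicate block, where Lama5 had an adjusted p of 0.0520 (0.00756 to 0.0442 under the others). Calls over all genes numbered 2736, and 1388 with single transcripts, where the cause was not tested; they were 1853 to 2222 without 1 library and 1927 with the replicate block. Deviations of same-numbered libraries correlated at 0.00682, 0.0329 and -0.0146. These values show no pairing by replicate number, but they cannot show that same-numbered libraries were prepared apart. Lama2 turned to 0.11 with single transcripts, and its share of the alpha chains, -0.12 percentage points, turned to 2.25 with the most abundant transcripts, to 1.17 with length weighting and to between -0.57 and 0.65 without 1 library. Without 1 library the log2 fold changes ran from -0.23 to 0.065 for Lamc1, and differences of ratios to Lamc1 from -0.084 to 0.025 (alpha chains), from -0.231 to 0.140 (beta chains) and from -0.372 to 0.212 (nidogens). They ran from -1.43 to 0.00083 for Col4a1, from -0.15 to 0.024 for Agrn and from -0.063 to 0.12 for Itga6. Sirt7 was at -2.27 with a pseudocount of 0.1 and lost its call on its main transcript alone (adjusted p = 0.0697, the highest of 15 alternatives, the lowest being 0.00194). Of 28 called related genes that the naming rule takes, 16 stayed called under all alternatives. Depth is unknown, so counting error limits low transcripts by an amount that cannot be given.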
